A study of Arabidopsis thaliana with 34 samples.

Results

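Arabidopsis thaliana seedlings of the inbred accession C24 were compared with seedlings of the same accession whose libraries carry other letters: C24 A-B, replicates A and B, against C24 D-G, replicates D, E, F and G. These 6 libraries of the 34 in the series were chosen by their column names alone, and C24 replicate C, a shallower library, was left out. Aerial tissue was taken at 15 days from C24, Ler, Col and their F1 hybrids on agar plates, and mRNA from 5 to 15 pooled seedlings made each library. C24 A-B and C24 D-G share genotype, tissue and age, carry no treatment or transgene, and differ in the labels by letter only. The labels give no growth, harvest, extraction or sequencing group and no hour of harvest for a letter, so the letters are used here as names of sets and nothing else. For setting beside C24, the same letters were compared in Ler A-B (2 libraries) against Ler D-G (4 libraries), and in 14 libraries that leave out inbred C24: the same 6 of Ler, C24xLer A-B against C24xLer D-E, and LerxC24 A-B against LerxC24 F-G (2 libraries in each hybrid set). The 8 hybrid libraries carry a C24 genome beside that of Ler.

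Several groups of plant transcripts are known to move with the hour and with small changes in the surroundings. The circadian clock is a loop of repressors in which the Myb factors CCA1 and LHY are made around dawn and the pseudo-response regulators and the evening complex follow through the day into the night, and through it genes of photosynthesis, starch, pigment and cold response cycle every day. Jasmonate, the hormone of wounding and insect attack, switches on its own synthesis enzymes and the JAZ repressors that limit the response, and abscisic acid does the same for dehydrins and other protective proteins when water is short.

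The 6 C24 libraries held 46942487 to 83522589 counts, with 73027861 and 77196173 in A and B. As a check on the accession, 25 genes were chosen for being expressed in Ler A-B and near 0 in C24 A-B, and their median in C24 D, E, F and G was 1.75% to 2.72% of the Ler level. Leaf markers were high in all 6, with a summed level of 31060 to 35960 counts per 1000000 (CPM, on library sizes adjusted by TMM) in A-B and 20160 to 28860 CPM in D-G over 6 genes. Markers of other organs were low in both sets and none was at 0: 10 root genes summed to 20.4 to 21.2 CPM in A-B and 13.5 to 30.1 CPM in D-G, and 8 floral organ genes to 20.6 to 25.2 CPM in A-B and 22.7 to 27.7 CPM in D-G. The 8 seed genes summed to 17.3 to 19.6 CPM in A-B and 19.9 to 21.5 CPM in D-G. No marker of any of the 4 lists was called, and their part in the results below was not tested. Ler D and Ler E, which enter the Ler comparisons, differed here. The 45 genes chosen for being expressed in C24 A-B and near 0 in Ler A-B had medians of 24.1% and 19.6% of their C24 level there. In Ler F and Ler G the medians were 1.09% and 0.921%. Not every gene low in Ler was raised in Ler D and E. FLC had 1.26 and 1.01 CPM there, against 77.1 and 70.7 CPM in C24 A and B (20-library scale). AOP2 had 7.12 and 4.61 CPM, against 1068 and 936 CPM. The medians thus do not give a share of C24 RNA. In bulk tissue, fewer cells of a type and less RNA per cell cannot be told apart.

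The D-G set was not uniform. On the first principal component of log2 CPM, which held 54.3% of the variance, A and B scored 51.5 and 39.7, D scored 7.52, E scored -15.65, and F and G scored -43.2 and -39.9. D and E thus lay between A-B and F-G. F and G were the closest pair, with 181 genes over 2-fold apart, while A and B had 587, D and E had 562, and A and F had 2217.

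**Figure D1:**
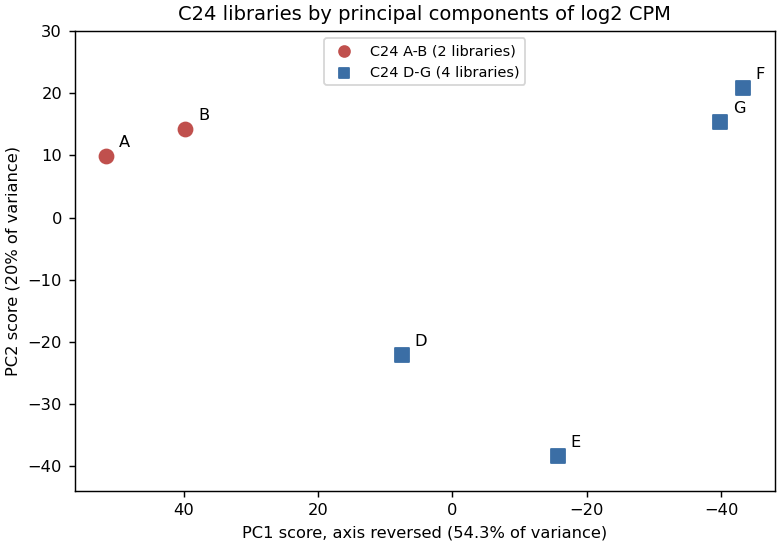
Scores of the 6 C24 libraries on the first (x axis, reversed, 54.3% of variance) and second (y axis, 20% of variance) principal components of log2 CPM, A-B as circles and D-G as squares. A and B stand at the left, F and G at the right, and D and E between them on the first component and low on the second.

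Of 29250 genes tested with edgeR's quasi-likelihood test, 515 differed between C24 A-B and C24 D-G at an adjusted p below 0.05 (Benjamini-Hochberg): 320 were higher in A-B (1.09% of the genes tested) and 195 were lower (0.667%). Over 2-fold, 252 were higher and 116 lower, and over 4-fold, 55 were higher and 6 lower. The count moved with the libraries used. It was 0 against D and E alone, with 2 libraries a set, and 5519 against F and G alone. Leaving out 1 library gave 6 genes without A, 121 without B, 1635 without D, 31 without E, 18 without F and 1 without G. In a fit of all 20 libraries of C24, Ler and their hybrids, 1476 were higher and 1448 lower in C24 A-B. At an unadjusted p below 0.05 there were 6035. All 515 had libraries that did not overlap between the sets. Over all genes tested both A-B libraries lay above every D-G library for 4569 (15.6%) and below for 5054 (17.3%). Among the genes called higher, D was the nearest of the 4 D-G libraries to A-B in 175 of 320 (54.7%), and among those called lower in 75 of 195 (38.5%). Each of the 40 called genes among the 65 named by rule lost its call without G and against D and E alone.

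The genes with the highest changes in A-B included a plastid sigma factor, a sugar transporter and proteins of drought and seed maturation. AT1G62510, annotated as a lipid-transfer type protein, had 38.0 and 43.8 CPM in A and B, against 1.90, 1.09, 0.684 and 1.37 CPM in D, E, F and G (32.1-fold, log2 5.01 ± 0.33 SE, adjusted p = 0.0082). AT2G16367, annotated as a transcribed pseudogene, had 44.0 and 15.8 CPM in A and B, against 0.850 to 1.66 CPM in D-G (log2 4.43 ± 0.41, adjusted p = 0.0143). SIGE, a nuclear-encoded sigma factor that directs the plastid RNA polymerase, had 101 and 44.6 CPM in A and B, against 7.09, 2.93, 2.90 and 2.495 CPM in D, E, F and G (18.7-fold, log2 4.22 ± 0.48, adjusted p = 0.0214). In all 3 the A-B libraries stood clear of every D-G library, which the rule that chose these genes requires. A exceeded B more than 2-fold in AT2G16367 and SIGE. FAMT, which methylates farnesoic acid, had 10.4 and 17.5 CPM in A and B, against 0.728 to 2.09 CPM in D-G (log2 3.57 ± 0.42, adjusted p = 0.0221). SAG29, a sugar transporter of the SWEET family known from senescing leaves, had 57.3 and 36.0 CPM in A and B, against 7.32, 3.80, 2.03 and 2.85 CPM in D, E, F and G (log2 3.53 ± 0.46, adjusted p = 0.0251). The remaining 5 of the 10 highest were RD29B, described with the abscisic acid genes below, cPT4 (log2 3.38), a prenyltransferase, LEA3 (3.36), a late embryogenesis abundant protein, 4CL8 (3.29), an AMP-binding ligase, and SOUL-1 (2.92), a haem-binding protein, with adjusted p of 0.0143 to 0.041. 4CL8 had 4.68 and 10.3 CPM in A and B and 0.296 to 1.51 CPM in D-G, the lowest levels among the 10.

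The genes with the deepest falls in A-B included a clock gene and parts of the nucleolus. Fibrillarin 2 (FIB2), which with small nucleolar RNAs methylates ribosomal RNA, had 13.6 and 13.5 CPM in A and B, against 57.0, 59.7, 47.5 and 37.1 CPM in D, E, F and G (log2 -1.89 ± 0.22, adjusted p = 0.0214). AT5G27120, annotated as a NOP56-like protein of the same ribosomal RNA methylation particle, had 16.6 and 16.9 CPM in A and B, against 51.3 to 69.2 CPM in D-G (log2 -1.82 ± 0.17, adjusted p = 0.0143). A and B lay within 0.4 CPM of each other in both, and about 3-fold or more under D-G. AT1G27020 had 7.47 and 8.19 CPM in A and B, against 39.7, 57.9, 75.7 and 58.2 CPM in D, E, F and G (log2 -2.89 ± 0.27, adjusted p = 0.0143). A pair of copper amine oxidases, enzymes that break down polyamines, was lower too. AT1G31690 had 17.5 and 13.22 CPM in A and B and 32.6 to 84.1 CPM in D-G (log2 -2.14 ± 0.40, adjusted p = 0.0497). AT4G12290 had 17.7 and 24.2 CPM in A and B and 50.1 to 77.0 CPM in D-G (log2 -1.63 ± 0.22, adjusted p = 0.0264). The other 5 of the 10 lowest were PRR3 and IPS1, described below, BBX8 (log2 -2.05), a B-box zinc finger protein, EME1A (-2.04), an endonuclease of DNA repair, and AT4G19410 (-1.91), annotated as a pectin acetylesterase, with adjusted p of 0.035 to 0.0399. FIB2, BBX8, AT4G19410, AT1G62510, cPT4 and SOUL-1 overlap another annotated gene, and since the use of strand in counting is not stated their counts can hold reads of the neighbour.

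Clock genes had the largest median changes of the 28 gene lists, in opposite directions by phase. The lists were chosen with earlier results of these data known, so this ranking is not independent of them. The 12 morning-phased genes had a median log2 change of 1.65 and the 12 evening-phased genes one of -1.96, where the median over all genes tested was -0.01. Against D and E alone the evening median was -1.19, with none called. Only 1 of each was called, CCA1 higher and PRR3 lower, where 1.09% of all genes were called higher and 0.667% lower. Of the morning genes 9 lay above all D-G libraries and 1 below, and of the evening genes 8 lay below and 1 above. Over all genes 15.6% lay above and 17.3% below. CCA1 had 257 and 198 CPM in A and B, against 119, 79.3, 71.6 and 76.6 CPM in D, E, F and G (2.62-fold, log2 1.39 ± 0.23, adjusted p = 0.0369). PRR3, a pseudo-response regulator that steadies TOC1, had 11.3 and 16.3 CPM in A and B, against 45.5, 100, 142 and 151 CPM in D, E, F and G (7.96-fold lower, log2 -2.99 ± 0.52, adjusted p = 0.0399). D was the D-G library nearest to A-B in both genes.

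**Figure D2:**
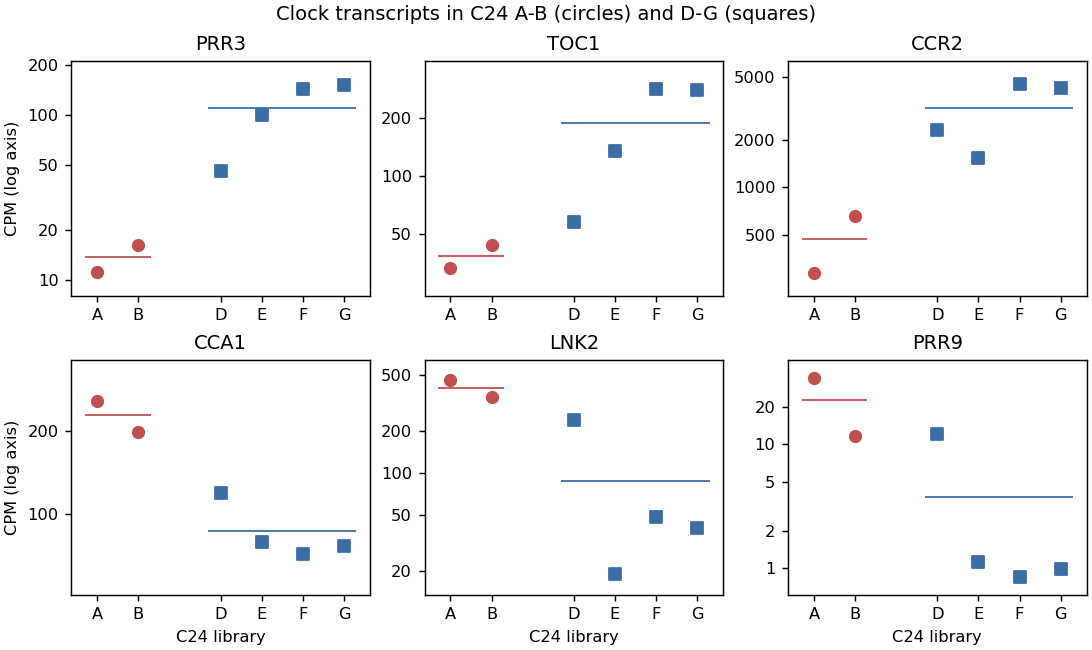
Levels (y axis, CPM on a log axis) of 3 evening-phased transcripts (PRR3, TOC1, CCR2) and 3 morning-phased ones (CCA1, LNK2, PRR9) in each C24 library (x axis), A-B as circles and D-G as squares, with lines at the set means. PRR3, TOC1 and CCR2 are lowest in A and B, CCA1 and LNK2 highest there, and PRR9 stands at 11.6 CPM in B and 12.03 CPM in D.

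The other 22 clock genes did not pass the test. TOC1, the evening repressor of CCA1, had 33.3 and 43.7 CPM in A and B, against 57.5, 134, 283 and 281 CPM in D, E, F and G (log2 -2.29 ± 0.65, adjusted p = 0.113). CCR2, a glycine-rich RNA-binding protein under clock control, had 286 and 657 CPM in A and B, against 2320, 1533, 4515 and 4275 CPM in D, E, F and G (log2 -2.75 ± 0.58, adjusted p = 0.0623). Of the evening complex, ELF3 had 24.8 and 35.5 CPM in A and B and 47.2 to 114 CPM in D-G. ELF4 had 3.43 and 3.63 CPM in A and B and 6.79 to 22.5 CPM in D-G, and LUX had 10.4 and 27.7 CPM in A and B and 37.9 to 122 CPM in D-G. None of the 3 overlapped between the sets, and their adjusted p were 0.0775, 0.0853 and 0.139. LNK2, a co-activator of the morning loop, had 458 and 350 CPM in A and B, against 240, 18.9, 48.2 and 40.5 CPM in D, E, F and G (log2 2.22 ± 0.86, adjusted p = 0.206). PRR9 had 34.3 and 11.6 CPM in A and B, against 12.03 CPM in D and 0.850 to 1.11 CPM in E, F and G, so that D overlapped A-B. The exceptions were CCR1 and CHE. CCR1, the close relative of CCR2, was listed with the morning genes although it is known to peak in the evening, and stood at 167 and 190 CPM in A and B and 199 to 505 CPM in D-G. CHE, a repressor of CCA1 listed with the evening genes, had 66.7 and 85.0 CPM in A and B and 34.7 to 54.8 CPM in D-G. LHY, the partner of CCA1, had 39.98 and 27.6 CPM in A and B, against 27.8, 19.4, 16.9 and 20.9 CPM in D, E, F and G, so that B lay just under D (log2 0.67 ± 0.23, adjusted p = 0.159). GI, PRR5 and ZTL overlapped between the sets as well. RVE8, RVE1, RVE7, LNK1, PRR7, CDF1 and BBX19 of the morning list lay above all D-G libraries with log2 changes of 0.59 to 2.59 and adjusted p of 0.0581 to 0.512. BOA and FKF1 of the evening list lay below them, at log2 -2.85 and -1.91 with adjusted p of 0.112 and 0.0903. COR27, a cold-responsive repressor of clock genes, had 1.36 and 2.87 CPM in A and B, against 10.3, 34.8, 128 and 114 CPM in D, E, F and G, and did not pass the test (log2 -5.08 ± 1.16, adjusted p = 0.0742).

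Promoters are given here for the 4 gene groups with the largest median change and a called member. In each group the gene is the called member with the largest change. Each promoter is 250 bases up to the annotated start of the gene. The sequences are from RefSeq's TAIR10.1 reference, which is the Col accession, so C24 may differ in sequence. Capitals mark matches on either strand to 7 motifs. AAATATCT is the evening element that clock Myb factors bind. The G-box, bound by bZIP and bHLH factors, is CACGTG and holds the next motif on both strands. The core of the abscisic acid response element is ACGTG. The core of the C-repeat, read by the CBF factors, is CCGAC. The core of the W-box, read by WRKY factors, is TTGAC. The heat shock element core is TTCNNGAA. The site of the phosphate factor PHR1 is GNATATNC. PRR3 lies on the minus strand (chr5:24201416-24201665), and CCA1 (chr2:19245341-19245590), JAZ9 (chr1:26654279-26654528) and RD29B (chr5:21236771-21237020) on the plus strand.
PRR3: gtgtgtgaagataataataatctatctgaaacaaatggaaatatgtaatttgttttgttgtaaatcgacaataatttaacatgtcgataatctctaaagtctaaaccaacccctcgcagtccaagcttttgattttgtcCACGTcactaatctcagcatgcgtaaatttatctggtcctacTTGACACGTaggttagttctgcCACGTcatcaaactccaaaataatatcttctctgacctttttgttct
CCA1: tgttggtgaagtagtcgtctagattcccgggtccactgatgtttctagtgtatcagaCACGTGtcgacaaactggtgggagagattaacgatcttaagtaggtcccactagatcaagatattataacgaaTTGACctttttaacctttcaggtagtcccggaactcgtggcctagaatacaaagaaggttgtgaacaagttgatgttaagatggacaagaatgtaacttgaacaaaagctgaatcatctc
JAZ9: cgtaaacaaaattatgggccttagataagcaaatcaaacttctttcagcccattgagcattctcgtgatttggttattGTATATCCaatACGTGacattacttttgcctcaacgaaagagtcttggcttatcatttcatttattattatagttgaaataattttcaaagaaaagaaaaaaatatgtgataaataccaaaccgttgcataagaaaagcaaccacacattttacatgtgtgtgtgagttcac
RD29B: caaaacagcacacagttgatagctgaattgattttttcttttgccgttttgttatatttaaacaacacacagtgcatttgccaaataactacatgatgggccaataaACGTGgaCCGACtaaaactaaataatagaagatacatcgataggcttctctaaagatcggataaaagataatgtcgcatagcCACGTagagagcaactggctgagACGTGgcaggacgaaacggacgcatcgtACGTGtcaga

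The searched windows ran 50 bases past the start, 300 bases in all. PRR3 had ACGTG 3 times, 1 of them overlapping a TTGAC match, and CCA1 had a G-box 193 bases before its start and TTGAC 2 times, 1 of them past the start and not printed. RD29B had ACGTG 4 times and CCGAC once, and JAZ9 had ACGTG and the PHR1 letters once each, and a heat shock core across its start that is not capitalized. ACGTG was present in 41.8% of the 318 promoters of genes called higher in A-B and 20% of the 195 of genes called lower, against 26.3% of 28841 nuclear promoters. The G-box was present in 50 of the 318 promoters of genes called higher and 8 of the 195 of genes called lower (4.1%), and in 7.43% of all. The evening element was in 7.86% of those higher, 8.72% of those lower and 5.52% of all. The PHR1 letters were in 10.7% of those higher, 5.13% of those lower and 6.24% of all. In the same order, CCGAC was in 18.6%, 15.4% and 15.5%, TTGAC in 51.6%, 48.7% and 50.2%, and the heat shock core in 9.75%, 10.8% and 9.04%. These shares are descriptions with no test, and a match is not a binding site.

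**Figure D3:**
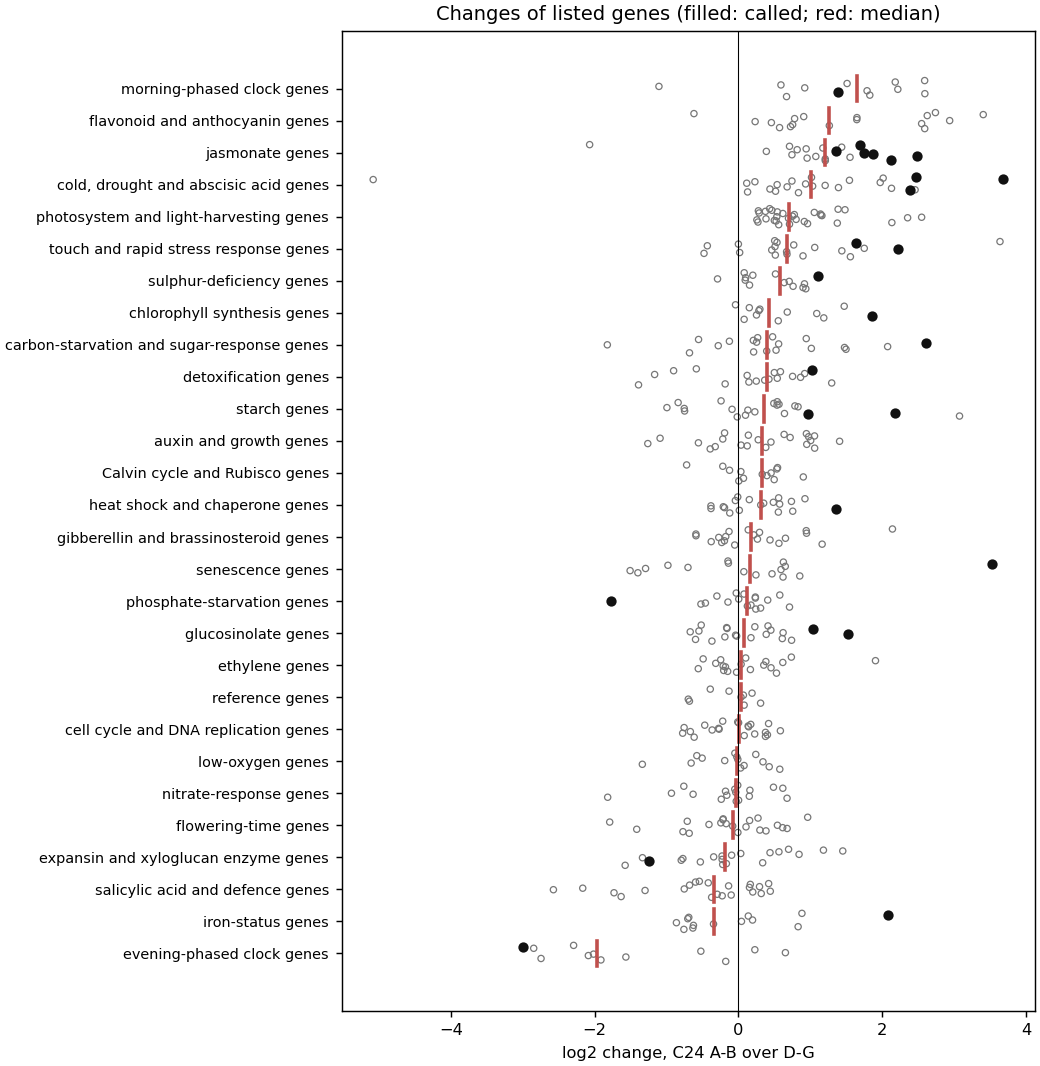
Log2 change, C24 A-B over D-G (x axis), of every tested member of the 28 gene lists (rows, ordered by median), with called genes filled and the median of each list as a red bar. The morning and evening clock lists stand at the ends with medians of 1.65 and -1.96, jasmonate genes hold 6 filled points, and ethylene, reference and cell cycle genes centre near 0.

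Jasmonate genes held the most calls among the lists, which were chosen with earlier results of these data known. Of 20 genes 6 rose in A-B and none fell, where 1.09% of all genes rose and 0.667% fell. Their median log2 change was 1.21. JAZ9, one of the repressors that hold back jasmonate responses, had 126 and 141 CPM in A and B, against 18.0, 25.4, 29.4 and 22.5 CPM in D, E, F and G (log2 2.49 ± 0.19, adjusted p = 0.0082). LOX3, a lipoxygenase at the first step of jasmonate synthesis, had 49.7 and 60.3 CPM in A and B, against 10.4, 13.9, 12.9 and 13.4 CPM in D, E, F and G (log2 2.122 ± 0.16, adjusted p = 0.0082). OPR3, the reductase that acts on the hormone's ring-shaped precursor, had 93.5 and 118 CPM in A and B, against 27.1, 38.3, 32.2 and 28.3 CPM in D, E, F and G (log2 1.75 ± 0.18, adjusted p = 0.0164). In these 3 called genes the 4 D-G libraries lay close together, D and E included, but a call itself favours genes with little spread. VSP2, not called, was spread widely over D-G, as given below. LOX4 (log2 1.86, adjusted p = 0.0308), AOS (1.69, 0.0351) and AOC1 (1.36, 0.035), further enzymes of the same route, also rose. Of the other JAZ genes JAZ5, JAZ7, JAZ8 and JAZ10 lay above all D-G libraries with log2 changes of 1.17 to 1.55 and adjusted p of 0.0581 to 0.123, and JAZ1 overlapped. MYC2, the factor the JAZ proteins bind, had 111 and 43.2 CPM in A and B and 21.7 to 45.4 CPM in D-G. Output genes did not share one direction: VSP2, a storage protein of the wound branch, had 325 and 361 CPM in A and B, against 399, 88.4, 8.56 and 11.6 CPM in D, E, F and G, and the defensin PDF1.2 had 0.412 and 0.332 CPM in A and B and 0.729 to 3.36 CPM in D-G. Neither was called.

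Of 23 genes of cold, drought and abscisic acid 3 rose in A-B and none fell, against 1.09% and 0.667% of all genes. The median log2 change was 1.02. Without A the median was 0.67 and none was called. The member with the largest fitted change was COR27, in the other direction and not called, whose values stand with the clock genes above. RD29B, a protective protein of abscisic acid response whose promoter is shown above, had 28.1 and 19.0 CPM in A and B, against 1.41, 1.22, 2.11 and 2.70 CPM in D, E, F and G (12.8-fold, log2 3.68 ± 0.32, adjusted p = 0.0143). RAB18, a dehydrin, had 166 and 112 CPM in A and B, against 25.8, 16.5, 23.7 and 34.7 CPM in D, E, F and G (log2 2.46 ± 0.28, adjusted p = 0.021). RD20, a caleosin of oil bodies, had 72.1 and 33.8 CPM in A and B, against 7.88, 12.7, 8.17 and 11.8 CPM in D, E, F and G (log2 2.39 ± 0.32, adjusted p = 0.0263). All 3 are abscisic acid targets, and in each the lower of A and B was more than 2.5-fold above the highest D-G library. P5CS1, which makes the osmolyte proline, had 1750 and 648 CPM in A and B, against 133, 371, 163 and 206 CPM in D, E, F and G (log2 2.46 ± 0.48, adjusted p = 0.054). COR15A, a chloroplast protein of cold acclimation, had 453 and 309 CPM in A and B, against 209 CPM in D and 31.9 to 56.0 CPM in E, F and G (adjusted p = 0.141). The upstream cold regulators CBF1, CBF2 and CBF3, which are near-identical neighbours whose reads can be confused, were at 0.373 to 3.46 CPM in A-B and 0.333 to 3.001 CPM in D-G, and none was called. NCED3, the committed step of abscisic acid synthesis, had 39.4 and 24.7 CPM in A and B and 18.0 to 22.04 CPM in D-G (log2 0.68 ± 0.19, adjusted p = 0.114).

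Touch and rapid stress genes showed a split between A and B. MYB77, a factor of auxin response, had 44.1 and 16.9 CPM in A and B, against 8.25, 5.37, 6.32 and 6.18 CPM in D, E, F and G (log2 2.22 ± 0.34, adjusted p = 0.0343). TCH2, a calmodulin-like protein, had 47.4 and 28.1 CPM in A and B, against 9.74 to 17.37 CPM in D-G (log2 1.64 ± 0.28, adjusted p = 0.0399). They were the called genes among 20, where 1.09% of all genes were called higher and 0.667% lower. TCH4, a cell wall enzyme induced by touch, had 198 and 459 CPM in A and B, against 48.5, 4.97, 36.3 and 15.8 CPM in D, E, F and G (log2 3.64 ± 0.77, adjusted p = 0.0616). WRKY33, WRKY40, WRKY46, STZ, SZF1 and ERF5 were more than 3-fold higher in A than in B. WRKY33 had 98.7 and 21.6 CPM in A and B, against 32.2, 13.6, 75.1 and 29.9 CPM in D, E, F and G. The list's median of 0.67 became 0.17 without A and 1.23 without B. Salicylic acid and defence genes had no call among 22 and a median of -0.33, which turned to 0.24 against D and E alone. PR1, the usual marker of this branch, had 48.8 and 35.3 CPM in A and B, against 22.8, 269, 461 and 249 CPM in D, E, F and G (adjusted p = 0.202).

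None of 31 transcripts of the light-harvesting antenna and the photosystems was called, where 1.09% of all genes were called higher and 0.667% lower. All 31 fitted changes were positive (median 0.71), and 30 lay above every D-G library, where 15.6% of all genes did. LHCB2.1, an antenna protein of photosystem II, had 1487 and 1463 CPM in A and B, against 773, 64.3, 112 and 60.2 CPM in D, E, F and G (log2 2.55 ± 1.00, adjusted p = 0.207). LHCB1.1 had 7018 and 5664 CPM in A and B, against 4549 CPM in D and 128 to 826 CPM in E, F and G, and its near-identical copies LHCB1.2 and LHCB1.3 can share reads with it (LHCB1.3, 13820 and 12230 CPM in A and B and 8693 to 12010 CPM in D-G). Core subunits had smaller changes: PSBO1, of the water-splitting complex, had 5548 and 5703 CPM in A and B and 3267 to 4765 CPM in D-G (log2 0.43 ± 0.20, adjusted p = 0.278). Again D was nearest to A-B in both antenna genes named.

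Enzymes of carbon fixation had small changes. RBCS1A, the main small subunit of Rubisco, had 15540 and 12870 CPM in A and B and 11380 to 15180 CPM in D-G, the sets overlapping (log2 0.07 ± 0.21, adjusted p = 0.883), and none of 13 Calvin cycle genes was called (median 0.33). Of 12 chlorophyll synthesis genes 1 rose. Over all genes 1.09% were called higher and 0.667% lower. HEMA1, glutamyl-tRNA reductase at the entry of the pathway, had 629 and 636 CPM in A and B, against 241, 132, 175 and 150 CPM in D, E, F and G (3.62-fold, log2 1.86 ± 0.23, adjusted p = 0.025). GUN5, a subunit of magnesium chelatase, had 3173 and 2846 CPM in A and B and 679 to 1789 CPM in D-G (adjusted p = 0.0802). Plastid-encoded transcripts had a median change of 0.68 over 88 genes with none called, 14 of them above all D-G libraries and none below. That is close to the 15.6% over all genes. They made up 0.0353% to 0.137% of the counts of the C24 libraries. mRNA selection leaves most plastid RNA out, so these rest on a small remainder.

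Of 20 starch genes 2 rose in A-B and none fell, against 1.09% and 0.667% of all genes. BAM1, a plastid beta-amylase that is used under stress, had 138 and 71.1 CPM in A and B, against 24.8, 27.0, 18.6 and 22.4 CPM in D, E, F and G (log2 2.17 ± 0.26, adjusted p = 0.0221). DPE2, which processes maltose in the cytosol, had 305 and 239 CPM in A and B, against 167, 122, 131 and 139 CPM in D, E, F and G (log2 0.96 ± 0.18, adjusted p = 0.047). GBSS1, the synthase of amylose and a clock-controlled gene, had 264 and 130 CPM in A and B, against 63.1, 16.4, 7.21 and 6.68 CPM in D, E, F and G (log2 3.08 ± 0.87, adjusted p = 0.114). In the other direction, BAM3, the main amylase of night-time breakdown, had 108 and 67.5 CPM in A and B and 114 to 247 CPM in D-G, and PWD, which phosphorylates the starch granule, had 216 and 238 CPM in A and B and 282 to 487 CPM in D-G. Neither BAM3 nor PWD was called (adjusted p of 0.155 and 0.11).

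Flavonoid and anthocyanin genes had a median change of 1.26 with no call among 17, where 1.09% of all genes were called higher and 0.667% lower. Both sets were spread widely. DFR, the first enzyme specific to anthocyanins, had 81.3 and 27.0 CPM in A and B, against 13.9, 3.96, 0.961 and 1.33 CPM in D, E, F and G (log2 3.41 ± 0.97, adjusted p = 0.114). TT4, chalcone synthase at the head of the pathway, had 244 and 81.7 CPM in A and B, against 151, 39.9, 8.63 and 8.11 CPM in D, E, F and G (log2 1.65 ± 1.11, adjusted p = 0.439). PAP1, the Myb activator of the late enzymes, had 13.3 and 3.37 CPM in A and B and 0.702 to 2.00 CPM in D-G (adjusted p = 0.0604). In these 3 genes A was more than 2.9-fold above B. In DFR the D-G libraries spanned more than 14-fold, with F and G lowest.

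Single genes stood out in lists with no other call, where 1.09% of all genes were called higher and 0.667% lower. HSP70 (AT3G12580), a cytosolic chaperone, had 22.3 and 17.8 CPM in A and B, against 8.36, 7.66, 7.49 and 7.76 CPM in D, E, F and G (log2 1.36 ± 0.14, adjusted p = 0.0169), the 1 called among 19 heat shock genes, while HSP101 had 11.2 and 10.0 CPM in A and B and 8.68 to 13.3 CPM in D-G. EXO, a cell wall protein linked to brassinosteroid-driven growth, had 93.5 and 254 CPM in A and B, against 36.2, 18.7, 28.2 and 30.3 CPM in D, E, F and G (log2 2.62 ± 0.39, adjusted p = 0.0322), the 1 called among 19 sugar-response genes. FER1, plastid ferritin, had 349 and 521 CPM in A and B, against 111, 46.0, 113 and 140 CPM in D, E, F and G (log2 2.08 ± 0.39, adjusted p = 0.0499), the 1 called among 13 iron genes. FER1 stands just inside the threshold, and the list's median was -0.35. SULTR2;1, a sulphate transporter of the vasculature, had 238 and 253 CPM in A and B, against 122, 96.7, 118 and 118 CPM in D, E, F and G (log2 1.11 ± 0.14, adjusted p = 0.025), the 1 called of 14 sulphur genes. The cytochrome CYP81D11 was the 1 called of 18 detoxification genes (13.7 and 18.1 CPM in A and B, 6.62 to 8.91 CPM in D-G, log2 1.02 ± 0.17, adjusted p = 0.0384), and SAG29 the 1 called of 16 senescence genes. The expansin EXPA1, a wall-loosening protein, was lower, with 56.1 and 55.0 CPM in A and B, against 153, 160, 102 and 110 CPM in D, E, F and G (log2 -1.24 ± 0.23, adjusted p = 0.0461), the 1 called of 20 expansin and xyloglucan enzyme genes.

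Glucosinolate genes held 2 calls among 20, both higher, where 1.09% of all genes were called higher. Both act on aliphatic glucosinolates, mustard-oil precursors made from methionine. MAM1, which lengthens the methionine side chain, had 773 and 849 CPM in A and B, against 363, 390, 413 and 413 CPM in D, E, F and G (2.05-fold, log2 1.04 ± 0.14, adjusted p = 0.0277). AOP2, which turns the chain into an alkenyl form, had 1085 and 953 CPM in A and B, against 429, 330, 271 and 387 CPM in D, E, F and G (2.88-fold, log2 1.52 ± 0.20, adjusted p = 0.0263). In both every D-G library lay under A and B, and a call itself favours genes with little spread. Both genes have close copies beside them, MAM3 and AOP3, and their counts are uncertain where reads match both. The other 18 glucosinolate genes were not called, and the list's median was 0.07. IPS1, a non-coding RNA that sequesters the phosphate regulator miR399, had 11.8 and 7.77 CPM in A and B, against 39.0, 33.5, 38.9 and 22.02 CPM in D, E, F and G (log2 -1.77 ± 0.29, adjusted p = 0.0369). It was the 1 called of 17 phosphate genes, where 0.667% of all genes were called lower. SPX1, a phosphate sensor, had 111 and 26.3 CPM in A and B and 35.5 to 71.1 CPM in D-G.

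Several processes held no called member. The counts of called genes were 0 of 19 for ethylene (median 0.04), 0 of 22 for auxin and growth (0.33), 0 of 20 for gibberellin and brassinosteroid (0.17), 0 of 21 for cell cycle and DNA replication (0.00), 0 of 21 for flowering time (-0.08), 0 of 17 for nitrate response (-0.04), 0 of 14 for low oxygen (-0.02) and 0 of 9 for reference genes (0.04). The background was 1.09% higher and 0.667% lower, and a missed call does not show that their levels were equal. FLC, the floral repressor lowered by winter cold, had 78.3 and 71.9 CPM in A and B and 69.3 to 104 CPM in D-G (log2 -0.24 ± 0.18, adjusted p = 0.486). CYCB1;1, a mitotic cyclin, had 8.32 and 6.18 CPM in A and B and 5.82 to 9.54 CPM in D-G. Among reference genes, PP2AA3 and UBC21 differed by log2 0.08 and -0.13, while the actin genes ACT2 (233 and 322 CPM in A and B, 322 to 554 CPM in D-G) and ACT8 (116 and 121 CPM, 122 to 240 CPM) lay below all D-G libraries without being called. NIA1, nitrate reductase, lay just outside the threshold with 108 and 110 CPM in A and B and 177 to 253 CPM in D-G (log2 -0.93 ± 0.18, adjusted p = 0.052).

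The same letters were then set against each other where no inbred C24 library enters. In the 14 libraries of Ler and the C24/Ler hybrids, fitted with genotype as a term, 5128 of 29789 genes were higher (17.2%) and 5365 lower (18%) in A-B, a count that was 5076 in all without LerxC24. That fit takes the libraries as independent, while libraries of 1 letter deviated together, with a correlation of 0.637 across the 14, so its p-values are too small. With the letter as a correlated block in limma 2904 were higher (9.75%) and 2265 lower (7.6%), and without the correlation limma called 10387. Of the genes called in C24, 278 of the 320 higher ones (86.9%) and 186 of the 195 lower ones (95.4%) were called the same way in the first fit, and 238 (74.4%) and 149 (76.4%) with the letter as a block, none the opposite way in either. C24 has the same letters, so the 2 comparisons are not independent of them. As shares of the calls of the first fit in the 14 libraries these are 5.42% and 3.47%. In Ler alone, 770 of 29457 genes were higher (2.61%) and 211 lower (0.716%), and 129 of the 320 (40.3%) and 44 of 194 tested (22.7%) were called the same way, with none opposite (16.8% and 20.9% of the Ler calls). Against Ler F and G alone, without the Ler libraries in which the median of C24-expressed genes was raised, 7395 Ler genes were called. The 14 libraries gave 12034 without Ler D and Ler E.

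Clock genes had these changes in Ler and the hybrids. PRR3 had a log2 change of -2.99 in C24, against -2.91 ± 0.22 (adjusted p = 2.56e-06, and 2.6e-05 with the letter as a block) in the 14 libraries and -2.89 ± 0.39 (0.0185) in Ler. CCA1 had 1.39 in C24, against 1.60 ± 0.17 (2.96e-05, and 0.000184 with the block) in the 14 libraries and 1.65 ± 0.28 (0.0302) in Ler. Of the 12 evening genes 8 were called lower and 1 higher in the 14 libraries, and of the 12 morning genes 10 were called higher and 1 lower. Over all genes 17.2% were higher and 18% lower there. With the letter as a block 8 evening genes were lower and 1 higher, and 9 morning genes were higher and none lower. Over all genes 9.75% were then higher and 7.6% lower. The evening gene called higher was CHE (0.66, adjusted p = 0.000132, and 0.0032 with the block) and the morning gene called lower CCR1 (-1.03, 0.0314, and 0.11 with the block), the exceptions in C24 as well. TOC1, at -2.29 and not called in C24, was at -2.36 ± 0.29 (adjusted p = 9.01e-05, and 0.000485 with the block) in the 14 libraries. Photosystem genes were called higher for 30 of 31 in the 14 libraries and flavonoid genes for 13 of 17, with median changes of 0.85 and 1.2. With the block 25 and 12 were called higher, where 9.75% of all genes were. DFR was among the flavonoid genes (4.62, adjusted p = 0.000126, and 0.000515 with the block). SIGE (3.84, 3.18e-07), AT2G16367 (4.22, 2.14e-06), RD29B (2.97, 9.92e-07), RD20 (2.79, 2.38e-06), SAG29 (3.54, 3.39e-06) and HEMA1 (1.39, 1.84e-05) were called higher in the 14 libraries. With the block they were called higher too, with adjusted p from 4.81e-06 (SIGE) to 0.00258 (HEMA1).

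**Figure D4:**
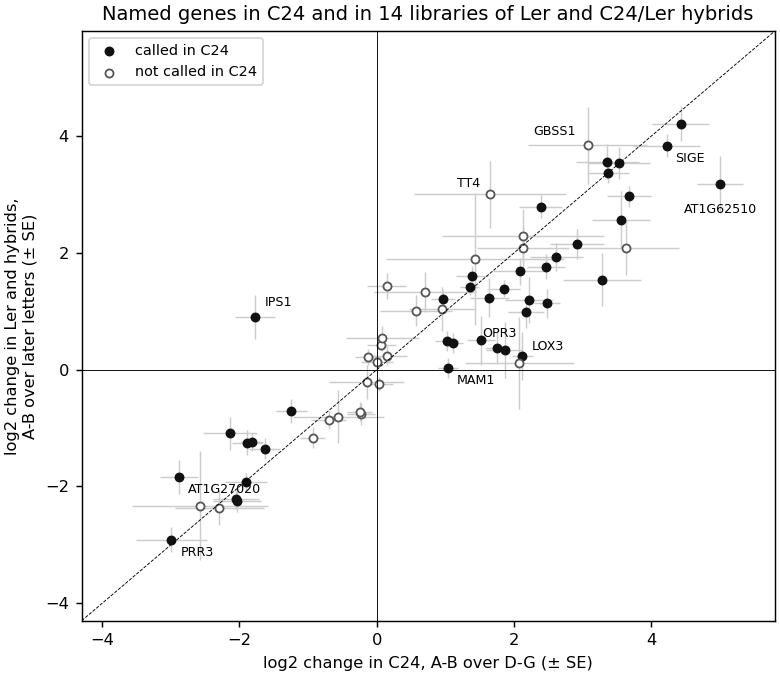
Log2 change of the 65 named genes in C24, A-B over D-G (x axis), and in the 14 libraries of Ler and C24/Ler hybrids, A-B over later letters (y axis), with SE bars, filled where called in C24, and a dashed line at equal change. PRR3 and SIGE lie near the line, LOX3, OPR3 and MAM1 lie near 0 on the y axis, and IPS1 is at -1.77 in C24 and at 0.905, not called, in the 14 libraries.

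Several jasmonate and glucosinolate genes had smaller fitted changes in Ler and the hybrids, a difference that was not tested against the 14 libraries. LOX3 had a log2 change of 2.122 in C24, against 0.24 (adjusted p = 0.683) in the 14 libraries, and OPR3 had 1.75 in C24, against 0.38 (0.305). The LerxC24 F-G libraries lay far apart, at 77.65 and 11.53 CPM of LOX3 and 94.0 and 18.7 CPM of OPR3. AOS (1.44, 1.84e-05, and 0.00141 with the letter as a block) and AOC1 (1.53, 0.000135, and 0.0111 with the block) were called higher in the 14 libraries too. MAM1 had 1.04 in C24, against 0.03 (0.901) in the 14 libraries. Within them it had -0.49 in Ler, not called. In C24xLer it had 385 and 373.5 CPM in A and B, against 240 and 261 CPM in D and E. In LerxC24 it had 299 and 248 CPM in A and B, and 218 and 280 CPM in F-G. AOP2 was higher in A-B in both hybrids. It had 347 and 301 against 176 and 103 CPM in C24xLer, and 237 and 145 against 75.2 and 86.7 CPM in LerxC24. The C24 against Ler difference of LOX3 did not pass (adjusted p = 0.332, and 0.106 with the letter as a block). Whether a change differed between C24 and Ler was tested as an interaction over 12 libraries: 5 of 29829 genes passed, 2 with a higher C24 change (0.0067%) and 3 with a lower one (0.0101%). With the letter as a replicate block 139 passed, and without Ler D and Ler E 21 passed, among them all 5. NSP1, a nitrile-specifier protein of glucosinolate breakdown, had 303 and 310 CPM in C24 A and B, against 119, 92.6, 91.6 and 98.9 CPM in C24 D, E, F and G, and 55.4 and 48.0 CPM in Ler A and B, against 64.2 to 78.9 CPM in Ler D-G (difference of log2 changes 2.07 ± 0.21, adjusted p = 0.0122). AT1G66110 had 8.12 and 8.49 CPM in C24 A and B and 1.87 to 3.01 CPM in C24 D-G, and 0.959 and 1.03 CPM in Ler A and B and 1.38 to 1.503 CPM in Ler D-G (2.42 ± 0.28, adjusted p = 0.0202). The deubiquitinase gene UBP21 had 7.51 and 7.06 CPM in C24 A and B and 14.1 to 17.1 CPM in C24 D-G, and 18.4 and 20.2 CPM in Ler A and B and 14.1 to 15.0 CPM in Ler D-G (-1.49 ± 0.16, adjusted p = 0.0122).

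With the letter as a replicate block, 4 of the named genes passed that test, Ler D and Ler E included. JAZ9 had 124 and 139 CPM in C24 A and B and 17.62 to 28.7 CPM in C24 D-G on library sizes of the 20-library scale, and 87.2 and 93.0 CPM in Ler A and B and 25.8 to 66.9 CPM in Ler D-G (difference 1.62 ± 0.25, adjusted p = 0.0487, and 0.618 without the block). OPR3 differed by 1.44 ± 0.22 (0.0426, and 0.115 without the block) and MAM1 by 1.51 ± 0.19 (0.0267, and 0.165). MAM1 had 114 and 107 CPM in Ler A and B and 122 to 189 CPM in Ler D-G, so its fitted changes in C24 and Ler had opposite signs. IPS1 had 11.6 and 7.64 CPM in C24 A and B and 21.5 to 38.1 CPM in C24 D-G, against 22.8 and 23.1 CPM in Ler A and B and 6.20 to 16.7 CPM in Ler D-G, a change of opposite sign (difference -3.10 ± 0.35, adjusted p = 0.0274, and 0.165 without the block). In the hybrid C24xLer it had 21.7 and 8.66 CPM in A and B, against 17.2 and 17.3 CPM in D and E. In LerxC24 it had 21.4 and 13.5 CPM in A and B, against 9.74 and 2.32 CPM in F-G, the direction of Ler. In Ler, D, where the median of C24-expressed genes was raised, had the lowest JAZ9 and E the next lowest, while for IPS1 D was the highest of Ler D-G.

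**Figure D5:**
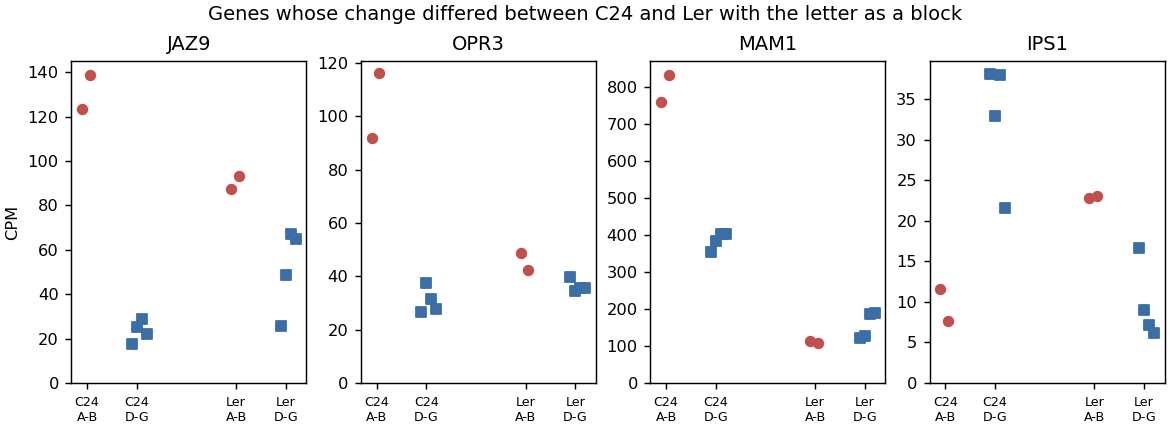
Levels (y axis, CPM from 0) of JAZ9, OPR3, MAM1 and IPS1 in each library of C24 A-B, C24 D-G, Ler A-B and Ler D-G (x axis), A-B as circles and D-G as squares. JAZ9 and OPR3 are higher in C24 A-B than in C24 D-G with smaller gaps in Ler. MAM1 is higher in C24 A-B but lower in Ler A-B, and IPS1 is lower in C24 A-B but higher in Ler A-B.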

How the data were processed

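Whole-number read counts for 33321 loci in 34 columns, not normalized, are what the authors deposited. Their notes to GEO (the submitters' processing notes) mention TAIR10 and FastQC. Aligner, counter, strand and read-pair handling: not given in the sources used here. Runs were single or paired, per the labels, without saying which. Reads of overlapping or near-identical genes therefore cannot be told apart: 16 of the 65 named genes overlap another annotated gene, and LHCB1, CBF, SAUR, Rubisco small subunit, MAM and AOP copies are uncertain.

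Columns were mapped to samples by name, except 2 LerxC24 columns whose letters match no title and which stand for LerxC24 F-G without a letter. No pair of C24 libraries agreed within sampling noise (lowest chi-square per gene 23.9, F and G). Nothing says whether pools were grown separately, so p-values measure the spread between these pools, which may be technical.

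edgeR 4.0.16 (R 4.3.3) tested the counts by quasi-likelihood with TMM library sizes, filterByExpr, robust dispersions and a Benjamini-Hochberg threshold of 0.05 across the table. Log2 changes are A-B over D-G, ± SE. DESeq2 1.42.0, other normalizations and filters, each library left out, and D, E or F, G alone were alternatives. In the 14 libraries of Ler and hybrids limma 3.58.1 (voom) took the letter as a correlated block, the 2 columns without a letter each as their own. Lists are described by counts and medians. Named by rule were the 10 highest and 10 lowest called changes with at least 5 CPM in the higher set and no overlap between the sets. In each of 28 lists the first gene and up to 4 called members were named by rule too. Other genes in the text were chosen after their values were seen. The members and lists were chosen with earlier results of these data known. ESM1 is not analysed here.

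Deviations of same-lettered C24 and Ler libraries from their set means correlated at 0.437 to 0.636 across genes. In A-B, with 2 libraries a set, A and B give the same value by construction. Libraries of different letters were not compared in this way, so pairing by letter was assumed for the block and not tested. A-B and D-G share no letter, so the block enters only the C24 against Ler difference. The code was tested on simulated data. Names and promoters are from RefSeq TAIR10.1 (32565 loci matched by identifier).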

Additional observations from a re-analysis of the deposited data

Results flagged for a closer look

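Among the 65 named genes, 5 had 1 library of C24 D-G far from the other 3, by Dixon's test at the 95% level, where about 1 group in 20 is found so by chance. It was D in 4 of them and E in 1. In D, SIGE was at 7.09 CPM against 2.495 to 2.93 CPM in E, F and G, COR15A at 208.5 CPM against 31.9 to 56.0, LHCB1.1 at 4549 CPM against 128 to 826, and CCA1 at 119.2 CPM against 71.6 to 79.3. In each of these D lay on the side of A-B. SPX1 was at 71.08 CPM in E, against 35.5 to 39.3 CPM in D, F and G.

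The change between A-B and D-G differed between C24 and Ler, as C24 minus Ler in log2 units, for AT1G66110 (2.42), AT2G41231 (-2.46), NSP1 (2.07), AT5G24640 (-3.00) and UBP21 (-1.49), by edgeR's interaction test. AT2G41231 had 1.96 and 1.75 CPM in C24 A and B and 1.95 to 2.71 CPM in C24 D-G, and 11.5 and 9.80 CPM in Ler A and B and 2.08 to 3.065 CPM in Ler D-G (adjusted p = 0.0189). AT5G24640 had 0.435 and 0.408 CPM in C24 A and B and 0.346 to 0.515 CPM in C24 D-G, and 3.36 and 2.80 CPM in Ler A and B and 0.272 to 0.526 CPM in Ler D-G (adjusted p = 0.0233). With the letter as a block, the differences of IPS1 (-3.10), JAZ9 (1.62), OPR3 (1.44) and MAM1 (1.51) passed as well.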

How the results depend on the processing

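The count of 515 genes in C24 was 2834 with DESeq2, 2924 with all 20 libraries in 1 fit, 0 against D and E alone, 5519 against F and G alone, and 1 to 1635 with 1 library left out. Against D and E alone each set has 2 libraries, and with A or B left out the lone library is assumed to vary like the others. The Ler count of 981 was 3386 with DESeq2, 7395 against F and G alone, 136 against D and E alone and 0 to 2640 with 1 library left out. The count of 10493 in the 14 libraries was 5076 without the LerxC24 libraries, 5169 with the replicate block (letter as a correlation, limma), an alternative added after seeing the data, and 8561 to 11333 with 1 left out. The C24 against Ler difference gave 5 genes, and 113 with DESeq2, 2 at a mean of at least 5 CPM, 139 with the replicate block (letter), 21 without Ler D and Ler E, 1570 with the replicate block and without D and E of both, an alternative added after seeing the data, and 0 to 11 with 1 library left out. Apart from the 5 CPM filter on that difference, the other normalizations and filters kept these 4 counts within 1.5 times. The 14 libraries gave 12034 without Ler D and Ler E. No sign of the 40 called named genes reversed, which their libraries, not overlapping between the sets, fix when 1 is left out. None kept its call throughout: without A 38 lost it, without B 21, without D 0, without E 31, without F 31 and without G 40, and EXPA1 lost it with upper-quartile normalization and LOX4 with 20 libraries. Of 420 list medians recomputed, 27 had the opposite sign. Of the 17 lists with a median of at least 0.3 in size, 2 did so: salicylic acid genes at 0.24 against D and E alone and iron genes at 0.1 against F and G alone. Causes were not tested. C24 libraries held 46942487 or more counts, and no alternative varied the depth.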

Other observations

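Clock transcripts were also read, as CPM on total counts, in the 10 libraries of Col and its hybrids, all lettered A or B, which no comparison above uses. PRR3 ranged over 3.59 to 12.7 CPM in these 10 libraries, against 45.5 to 155 CPM in the 12 libraries of C24, Ler and their hybrids with letters after C. TOC1 had 25.9 to 56.8 CPM in the 10 and 57.5 to 368 CPM in the 12, ELF4 3.12 to 5.46 CPM and 6.80 to 23.2 CPM, and CCA1 195 to 268 CPM and 55.8 to 127 CPM. The 10 and the 12 did not overlap in 11 of 24 clock genes, these 4 among them, and overlapped in the others, LHY, GI, PRR5, PRR7 and ZTL included. Col and its hybrids have no later letters here, so letter and genotype cannot be told apart between the 10 and the 12. Over all 18 libraries lettered A and B, 8 of them used above, 9 of the 24 genes did not overlap with the 12. The share over all genes is not given for either count, so neither can be set against a background.

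C24 C, left out of the comparison, did not side with either set throughout. It had 58.8 CPM of PRR3, 82.9 of TOC1 and 89.6 of CCA1, inside the range of the 12 later libraries, and 407 CPM of CCR2, where the 18 had 185 to 1150 and the 12 had 1666 to 5142. For LNK1 it had 176 CPM, above the 18 (40.6 to 145) and the 12 (6.33 to 44.0). Ler C had 41.1 CPM of PRR3, 74.9 of TOC1, 77.3 of CCA1, 451 of CCR2 and 150 of LNK1. Both libraries are shallower than the rest (C24 C 14177295 counts), with 11685 loci at 0 in C24 C. They also had almost no loci at a count of 1, 2 in C24 C and 6 in Ler C. The 6 C24 libraries compared above had 409 to 541. Transfer RNA made up 0% of the counts in both, against 0.011% to 0.0121% in those 6. Whether both were counted or filtered like the others is not stated, so their CPM may not be comparable.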
